A study of Mus musculus with 4 samples.

Results

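The genes described here are the 348 immunoglobulin variable (V) genes of the table, those whose symbol begins with Ighv (185 heavy chain genes), Igkv (160 kappa light chain genes) or Iglv (3 lambda light chain genes), among 31053 genes in all. They were chosen by symbol, with earlier results of these data known, and no measured value entered the rule. Their usage was measured in liver mononuclear cells of C57BL/6 mice aged 8 to 10 weeks, in 1 droplet library for each of 4 groups. Naïve mice were the group without the T cell mitogen concanavalin A (ConA), and whether they received a vehicle is not stated. ConA+Veh mice received ConA and vehicle. ConA+TCDD mice received ConA and 10 µg/kg of the aryl hydrocarbon receptor (AhR) ligand TCDD given 1 h later. ConA+FICZ mice received ConA and FICZ, another AhR ligand. The authors set the end of the study at 24 h after ConA. This time was taken here for every ConA group, although their text does not describe the ConA+FICZ mice. The dose and time of FICZ and the number of mice behind each library are not given in the sources used here. Where 4 values stand together they follow the order Naïve, then ConA+Veh, then ConA+TCDD and last ConA+FICZ. With 1 library per group, no difference between groups could be tested, no replicate error exists, and all intervals below are exact 95% intervals that cover counting error only.

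Each B cell assembles its receptor by joining 1 V gene to a J segment (and, in the heavy chain, a D segment), and this choice is made anew in every developing B cell. A mature cell normally carries 1 productive heavy chain, from the Ighv locus on chromosome 12, and 1 productive light chain, from the Igkv locus on chromosome 6 or, far more rarely in the mouse, from the small lambda locus on chromosome 16. The V gene that a cell transcribes is therefore a mark of that cell and its descendants, and a cell that secretes antibody holds far more immunoglobulin mRNA than a resting B cell. B-1 cells, an innate-like B cell class that is common in body cavities, are known for a few recurrent pairs of V genes that bind self lipids such as phosphatidylcholine.

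The V exons of the genes that the results turn on most are shown here as annotated coding sequence of GENCODE M21 on GRCm38, the build of the deposited counts, written 5′ to 3′ and, for exons over 300 bases, cut to their last 300. The coordinates are those of the printed stretch. The first 4 belong to pairs known from phosphatidylcholine-binding B-1 cells, Ighv11-2 (chr12:114048241-114048540, minus strand) with Igkv14-126 (chr6:67896345-67896642, plus strand) and Ighv12-3 (chr12:114366521-114366820, minus strand) with Igkv4-91 (chr6:68768555-68768854, minus strand). The other two were the most used heavy and light chain genes, Ighv1-26 (chr12:114788372-114788671, minus strand) and Igkv10-96 (chr6:68631963-68632260, minus strand). Capitals mark the last in-frame cysteine codon, after which the joined region (CDR3) begins.
Ighv11-2: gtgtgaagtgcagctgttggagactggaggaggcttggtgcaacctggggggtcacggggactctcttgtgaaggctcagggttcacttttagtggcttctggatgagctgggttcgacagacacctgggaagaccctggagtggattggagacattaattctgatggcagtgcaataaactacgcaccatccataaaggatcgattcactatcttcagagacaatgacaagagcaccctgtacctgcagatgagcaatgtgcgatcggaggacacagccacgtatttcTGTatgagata
Igkv14-126: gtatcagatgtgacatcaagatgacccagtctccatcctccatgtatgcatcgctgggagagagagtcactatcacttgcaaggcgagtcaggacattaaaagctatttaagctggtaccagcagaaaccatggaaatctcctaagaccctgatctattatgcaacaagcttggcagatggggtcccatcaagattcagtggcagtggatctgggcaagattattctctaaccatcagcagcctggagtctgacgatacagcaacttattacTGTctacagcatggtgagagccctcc
Ighv12-3: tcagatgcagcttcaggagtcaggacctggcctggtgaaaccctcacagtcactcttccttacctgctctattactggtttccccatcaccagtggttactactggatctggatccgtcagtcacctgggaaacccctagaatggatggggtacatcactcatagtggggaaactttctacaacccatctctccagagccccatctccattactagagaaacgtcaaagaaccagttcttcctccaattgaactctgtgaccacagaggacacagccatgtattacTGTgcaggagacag
Igkv4-91: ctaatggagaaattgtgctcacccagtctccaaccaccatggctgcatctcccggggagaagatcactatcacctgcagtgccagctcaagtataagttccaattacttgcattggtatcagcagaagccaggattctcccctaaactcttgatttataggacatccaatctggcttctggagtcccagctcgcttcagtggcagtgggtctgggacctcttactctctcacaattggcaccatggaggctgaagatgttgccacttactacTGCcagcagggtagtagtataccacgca
Ighv1-26: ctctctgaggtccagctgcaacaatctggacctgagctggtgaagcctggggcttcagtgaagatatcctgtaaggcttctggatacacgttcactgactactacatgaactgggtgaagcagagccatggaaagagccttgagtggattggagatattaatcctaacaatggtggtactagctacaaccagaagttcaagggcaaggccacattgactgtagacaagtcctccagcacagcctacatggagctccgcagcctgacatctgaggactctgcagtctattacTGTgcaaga
Igkv10-96: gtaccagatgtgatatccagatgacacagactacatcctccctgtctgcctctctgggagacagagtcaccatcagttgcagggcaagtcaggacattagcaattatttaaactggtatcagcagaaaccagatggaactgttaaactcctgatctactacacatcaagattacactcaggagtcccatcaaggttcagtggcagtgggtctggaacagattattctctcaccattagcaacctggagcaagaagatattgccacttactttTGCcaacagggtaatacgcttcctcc

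The lambda genes Iglv1 (chr16:19085017-19085316, minus strand) and Iglv2 (chr16:19260401-19260700, minus strand) are shown because they were the pair of light chain genes most often found in the same cell. Capitals mark the bases at which they differ. They shared 96.4% of aligned positions, with 8 substitutions, all of them in the printed stretch, and 3 gap positions outside it. Iglv1 and Iglv3 shared 54.0%.
Iglv1: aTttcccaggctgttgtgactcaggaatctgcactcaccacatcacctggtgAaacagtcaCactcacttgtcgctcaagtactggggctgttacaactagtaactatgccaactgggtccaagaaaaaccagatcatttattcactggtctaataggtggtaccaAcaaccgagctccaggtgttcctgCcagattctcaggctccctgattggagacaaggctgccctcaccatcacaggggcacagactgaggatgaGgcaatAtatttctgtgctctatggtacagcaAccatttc
Iglv2: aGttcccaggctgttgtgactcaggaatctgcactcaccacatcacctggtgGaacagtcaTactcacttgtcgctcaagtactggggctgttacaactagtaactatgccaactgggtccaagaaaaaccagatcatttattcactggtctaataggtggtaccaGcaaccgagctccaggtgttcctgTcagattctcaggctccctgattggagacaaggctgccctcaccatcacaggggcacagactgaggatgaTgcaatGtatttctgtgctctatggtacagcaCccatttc

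B cells were taken as the cells with at least 3 UMIs (unique molecular identifiers, each standing for 1 captured mRNA molecule) of Cd79a, Cd79b and Ms4a1 together, the signalling chains of the B cell receptor and the surface protein CD20. This gave 1081 of 2086 cells in Naïve, 827 of 2779 after ConA+Veh, 350 of 1880 after ConA+TCDD and 792 of 2555 after ConA+FICZ. The B cells held a median of 2142, 4398, 4004 and 3928 UMIs, so a Naïve B cell was read at the lowest depth. The libraries held between 5952445 and 19252211 UMIs in all. A UMI of the T cell genes Cd3d, Cd3e or Cd3g was found in 22, 116, 30 and 51 of the gated cells, and no doublet caller was run. Of 9255 cell barcodes, 45 occurred in more than 1 library.

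Nearly all gated cells held V gene UMIs, and few T cells did. After each cell was thinned to 1000 UMIs, 98.8%, 97.7%, 92.8% and 93.8% of B cells still held a V gene UMI, against 1.11%, 2.01%, 1.19% and 1.22% of T cells (cells with no UMI of the gate and at least 2 of the Cd3 genes), which should hold none. Without thinning the values were 99.4%, 99.0%, 98.6% and 97.5% of B cells and 2.96%, 11.2%, 4.49% and 4.19% of T cells, whose median depths were 2719, 6808, 6182 and 8063 UMIs. The thinning left out 24, 46, 16 and 24 B cells and 21, 19, 15 and 8 T cells as too shallow. The gate held 99.4%, 99.1%, 94.4% and 99.1% of all V gene UMIs, so ConA+TCDD was the library with the largest share outside it.

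Of the 348 V genes, 233 had at least 1 of the 145051 V gene UMIs of the B cells, and 115 had none. Of the genes annotated as functional, 103 of 115 heavy, 96 of 100 kappa and 3 of 3 lambda genes were detected, and of those annotated as pseudogenes 17 of 70 heavy and 14 of 60 kappa genes were, with 125 and 301 UMIs in all. Igkv4-77 alone, chosen after its values were seen, gave 146 of the kappa pseudogene UMIs. None of the 31 J and D segments of the table had a UMI in any cell, so the joined segment and the CDR3 sequence could not be read and clones could not be told apart.

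A few cells dominated the summed V gene UMIs. The plot of V gene UMIs per cell shows 8 B cells with at least 1000 such UMIs, a limit set after the values were seen, and the next cell below it held 396, 313, 222 and 520. The 8 cells were 1 of Naïve, 4 of ConA+Veh and 3 of ConA+FICZ, with 0 from the ConA+TCDD library. They held 5.09%, 32.1%, 0% and 27.2% of all V gene UMIs of the B cells, while the median B cell held 18, 44, 29.5 and 24. The 10 cells with the most held 11.4%, 34.6%, 11.6% and 32.0%.

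**Figure D1:**
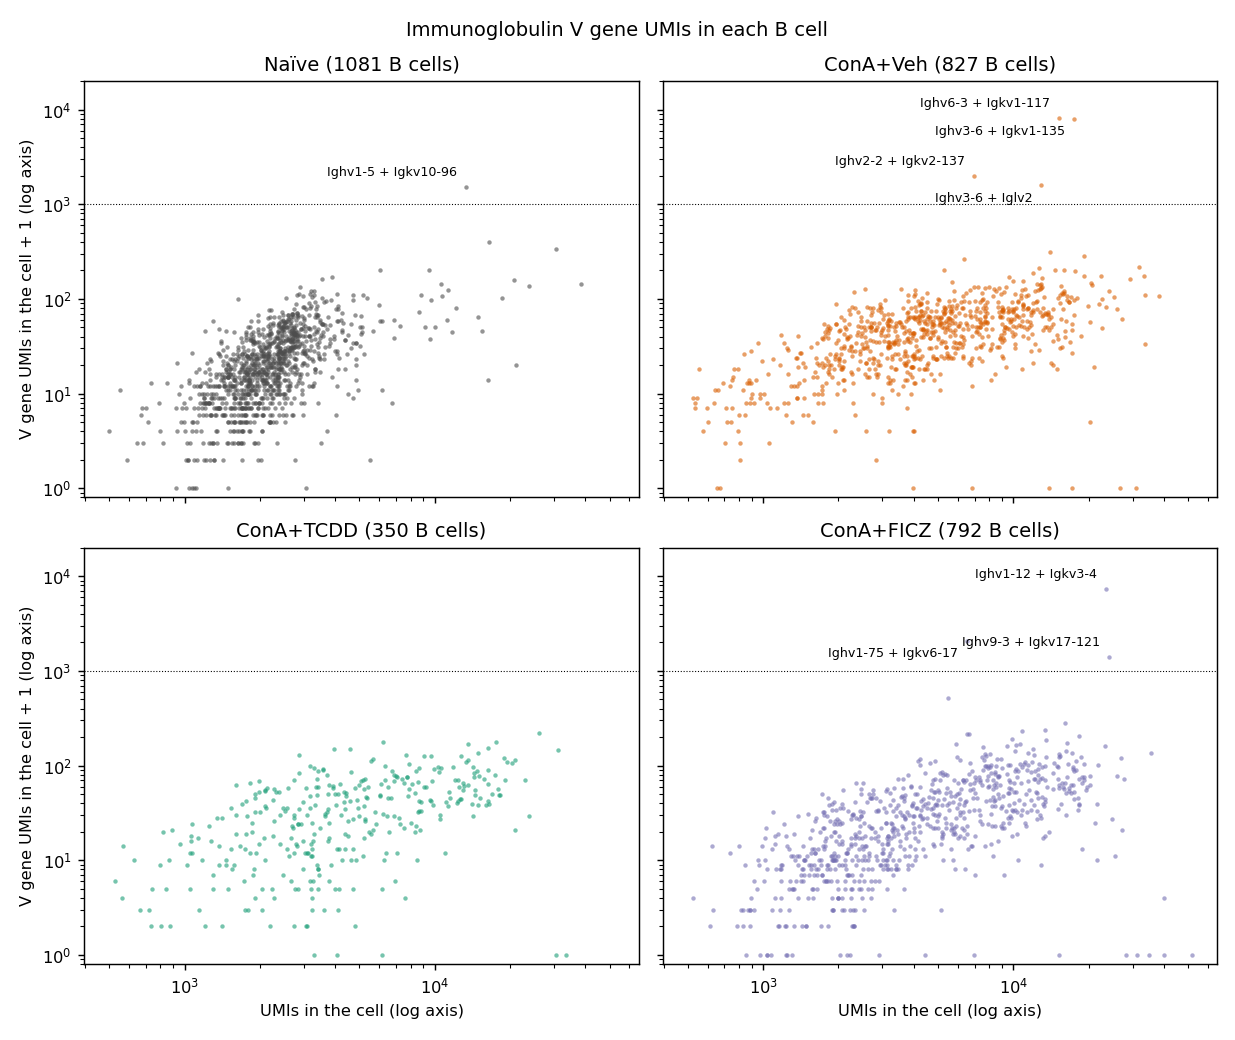
V gene UMIs (plus 1) against all UMIs of each B cell, both on log axes, in 1 panel per library; the dotted line lies at 1000 V gene UMIs and the cells above it carry the names of their leading heavy and light chain V genes. ConA+Veh has 4 cells above the line, ConA+FICZ 3, Naïve 1 and ConA+TCDD 0.

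Each of these cells was led by 1 heavy and 1 light chain V gene. The cell with the most in ConA+Veh held 1422 UMIs of Ighv6-3 and 6601 of Igkv1-117, and its 8155 V gene UMIs were 53.4% of its 15263 UMIs. The next held 1971 UMIs of Ighv3-6 and 5910 of Igkv1-135. Both of these cells therefore gave most of what the library recorded for the genes they used: Igkv1-117 had 8357 UMIs and Igkv1-135 had 7161 over all ConA+Veh B cells. The other two cells of that library were led by Ighv2-2 with Igkv2-137 (728 and 1240 UMIs) and by Ighv3-6 with Iglv2 (387 and 995 UMIs). In ConA+FICZ the leading cell held 1242 UMIs of Ighv1-12 and 5893 of Igkv3-4, 18.5% of the V gene UMIs of all B cells of that library together with its minor genes. The others in ConA+FICZ held Ighv1-75 with Igkv6-17 (521 and 1547 UMIs) and Ighv9-3 with Igkv17-121 (513 and 896 UMIs). The single Naïve cell held 720 UMIs of Ighv1-5 and 809 of Igkv10-96. In ConA+TCDD the leading cell held 45 UMIs of Ighv8-8 and 175 of Igkv1-110, 1.60% of that library's V gene UMIs. No heavy and light pair occurred in more than 1 of the 8 cells.

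Some genes of antibody secretion were detected in most of these cells. Jchain, the joining chain of secreted IgM and IgA, had a UMI in 7 of the 8 cells and in 6 of the other 3042 B cells. Summed over the B cells Jchain had 32, 1121, 0 and 374 UMIs. Prdm1, the transcription factor Blimp-1 of plasma cells, had a UMI in 5 of the 8 cells and in 0.789% of the others. Xbp1, a factor of the secretory response, had one in 7 of the 8 and in 17% of the others. Mzb1, a chaperone of antibody assembly, had one in all 8 and in 51.2% of the others, and Irf4, a factor of plasma cell differentiation, in 6 of the 8 and 23.9%. Sdc1, the plasma cell surface protein CD138, and Tnfrsf17, the receptor BCMA, had a UMI in 1 of the 8 each and in 1.25% and 0% of the others. Ms4a1 still had a UMI in 5 of the 8 cells. The Naïve cell held 0 UMIs of Jchain, Xbp1 and Prdm1. The 8 cells held 6534 to 24041 UMIs, beside medians of 2142 to 4398 over all B cells of a library. Detection was not compared at equal depth. The 8 cells carried Ighm as their leading heavy chain constant gene, with 149 to 959 UMIs, and each held at most 10 UMIs of any other.

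The summed level of V genes depended on these cells. As scaled counts (CPM, here the UMIs of a gene per 1000000 UMIs of the library's B cells), all V genes summed stood at 10946 (10823 to 11070) for Naïve and at 11903 (11809 to 11998) for ConA+Veh. The level was 6539 (6431 to 6649) after TCDD and 8242 (8161 to 8323) after FICZ. On the log2 scale the ratio of ConA+Veh to Naïve was 0.12 (0.10 to 0.14), the ratio for TCDD against vehicle was -0.86 (-0.89 to -0.84), and the ratio for FICZ against vehicle was -0.53 (-0.55 to -0.51). Without the 8 cells the 4 levels were 10439, 8162, 6539 and 6065, and the order of Naïve and ConA+Veh turned, at a log2 ratio of -0.35 for ConA+Veh over Naïve. ConA+TCDD over ConA+Veh was then -0.32 and ConA+FICZ over ConA+Veh -0.43. ConA+FICZ over ConA+TCDD turned from 0.33 to -0.11. The mean over cells of each cell's own V gene UMIs on the same scale was 10365, 12143, 8462 and 7781, which also set ConA+TCDD above ConA+FICZ. The place of ConA+TCDD and ConA+FICZ below both other libraries held in all 3 of these measures. A UMI of the hepatocyte gene Alb was found in 6.01%, 4.59%, 0.571% and 19.9% of the B cells, and the part of such free RNA in these levels was not tested.

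Kappa genes gave most of the sum, where a UMI counts a molecule once whatever its length. In Naïve they stood at 8462 CPM, heavy chain genes at 1803 and lambda genes at 681. The same order of the chains held in the other libraries, with kappa, heavy and lambda at 8987, 2200 and 716 CPM in ConA+Veh. They stood at 5148, 1089 and 303 CPM after TCDD and at 6348, 1419 and 474 CPM after FICZ. Without the 8 cells heavy chain genes stood at 1549, 1334, 1089 and 949 CPM.

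Usage was therefore counted over cells, each cell once. A cell was assigned to a V gene of a chain when that gene had at least 2 UMIs and at least 75% of the chain's V gene UMIs, with kappa and lambda counted as 1 light chain. Heavy chains were assigned in 539 of 1081 Naïve B cells (49.9%), 668 of 827 in ConA+Veh (80.8%), 261 of 350 in ConA+TCDD (74.6%) and 460 of 792 in ConA+FICZ (58.1%). Light chains were assigned in 865, 659, 274 and 614 cells (80.0%, 79.7%, 78.3% and 77.5%). The heavy share had the same order as the number of heavy chain V gene UMIs in the median cell, which was 2, 6, 4 and 3, against 16, 36, 25 and 20 for the light chain. Assignment asks for at least 2 UMIs, so the definition ties this share to that number. In all, 182 V genes led at least 1 assigned cell. The leading gene held 100% of the chain's V gene UMIs in the median assigned cell of every library and chain.

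Counted over cells, the shares of V genes were more alike between libraries than counted over UMIs, except between Naïve and ConA+TCDD for light chains, where r was 0.85 by either count. Across the 93 heavy chain genes with an assigned cell, Pearson's r between the shares of any pair of libraries was 0.79 to 0.91, and across the 89 light chain genes it was 0.79 to 0.87. Counted over UMIs the same values were 0.16 to 0.40 and 0.33 to 0.85. These correlations are across genes, which are not independent replicates, and many of the points rest on few cells. The inverse Simpson index, an effective number of equally used genes, was 46.6, 42.0, 39.6 and 43.1 for heavy chains by cells but 25.4, 10.5, 34.2 and 15.7 by UMIs. For light chains it was 45.5, 44.1, 49.0 and 40.7 by cells and 35.3, 16.4, 35.6 and 16.7 by UMIs. The libraries with the most V gene UMIs in few cells, ConA+Veh and ConA+FICZ, thus had the lowest index by UMIs in both chains. At a common number of 261 cells the expected number of heavy chain genes was 68.5, 64.6, 64.0 and 66.5, and at 274 cells that of light chain genes was 65.9, 66.6, 66.0 and 65.8.

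**Figure D2:**
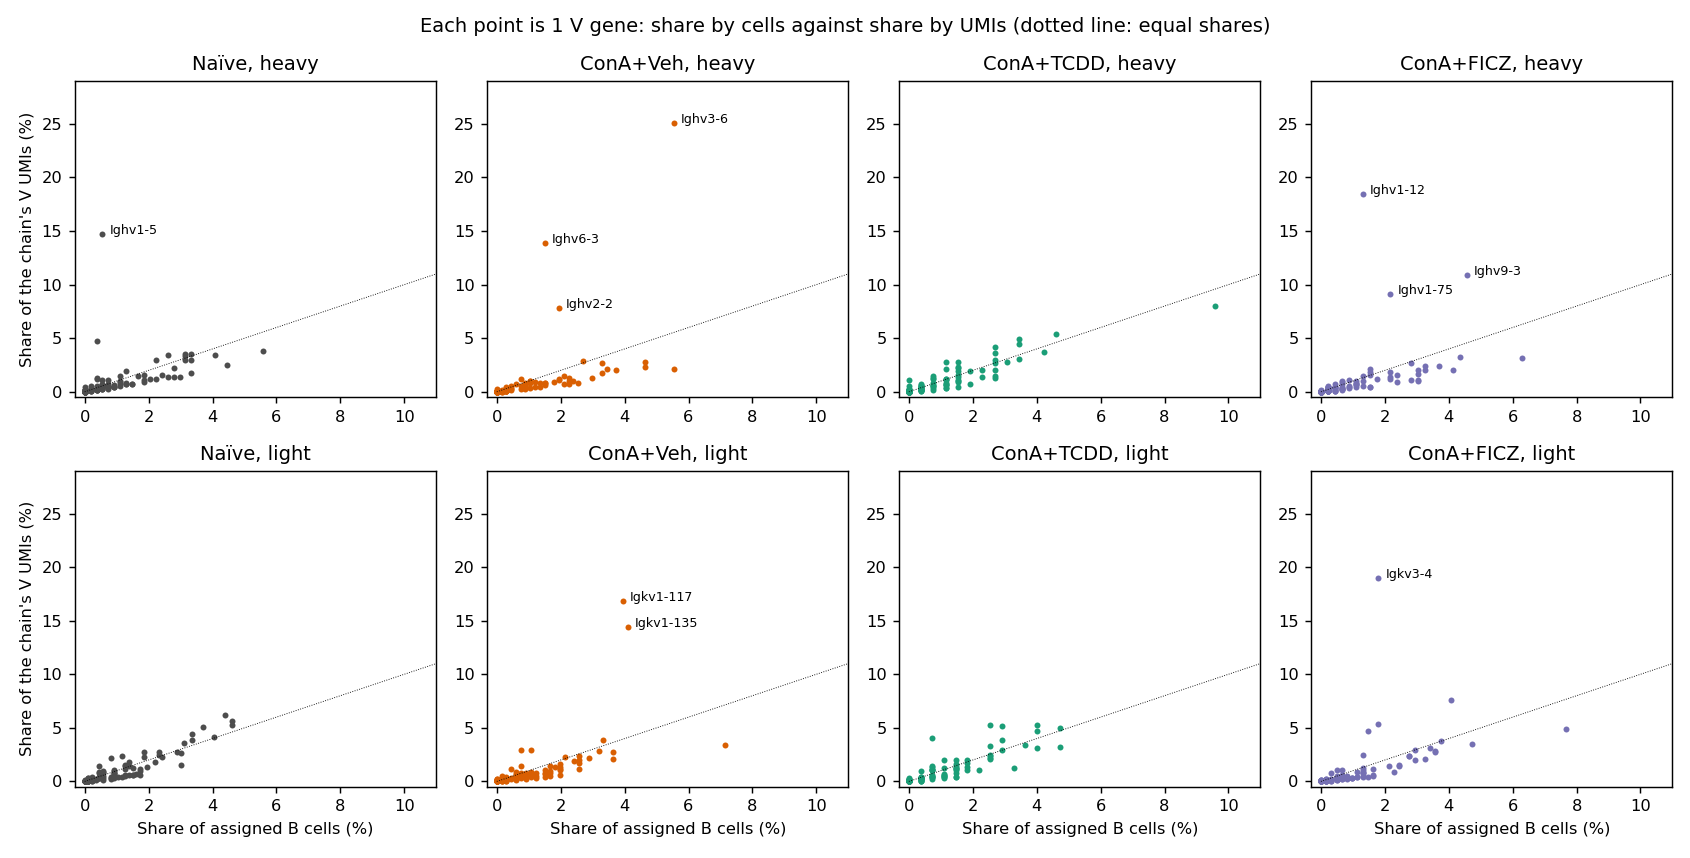
Share of each V gene among assigned B cells (horizontal, %) against its share of the chain's V gene UMIs (vertical, %), 1 point per gene, heavy chain genes above and light chain genes below, 1 column per library. Most points lie near the dotted line of equal shares, and the named points far above it are the genes of the cells with the most V gene UMIs, such as Ighv3-6 in ConA+Veh with 5.54% of cells and 25% of UMIs.

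Ighv1-26 was the most used heavy chain gene in Naïve, ConA+TCDD and ConA+FICZ, and shared the highest place with Ighv3-6 in ConA+Veh. It led 30 cells (5.57%, 3.79% to 7.85%) in Naïve and 37 (5.54%, 3.93% to 7.55%) in ConA+Veh. It led 25 (9.58%, 6.30% to 13.8%) in ConA+TCDD and 29 (6.30%, 4.26% to 8.93%) in ConA+FICZ. The higher share in ConA+TCDD, 4.04 percentage points over ConA+Veh, was the largest difference of any heavy chain gene in that comparison, and the 2 intervals overlapped. Under the other gates, assignments and sets of cells tried and after thinning, the Ighv1-26 share was 6.19% to 10.1% in ConA+TCDD. In ConA+Veh it was 4.48% to 5.76%, so the size of the difference depended on the setting. Each cell counts once in these shares, and the highest Ighv1-26 count of any cell was 36 UMIs. Ighv3-6 followed with 22, 37, 12 and 20 cells (4.08%, 5.54%, 4.6% and 4.35%). The next by mean share were Ighv1-82 (3.34%, 4.64%, 2.68% and 4.13%), Ighv1-64 (4.45%, 4.64%, 3.45% and 2.17%), Ighv1-80 (2.97%, 3.74%, 4.21% and 3.26%) and Ighv9-3 (3.15%, 3.29%, 2.68% and 4.57%). Neighbours in this order had overlapping intervals in every library, and in ConA+TCDD that of Ighv3-6 was 2.40% to 7.89%.

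The largest other differences in heavy chain usage were small in cells. From Naïve to ConA+Veh the largest gain was that of Ighv1-19, from 3 cells (0.557%, 0.115% to 1.62%) to 15 (2.25%, 1.26% to 3.68%), and the largest loss that of Ighv6-3, from 14 cells (2.60%) to 10 (1.5%). From ConA+Veh to ConA+TCDD the largest loss was that of Ighv1-82, by 1.96 points. From ConA+Veh to ConA+FICZ Ighv8-12 gained most, from 1.5% to 3.70%, and Ighv1-64 lost most, from 4.64% (3.17% to 6.52%) to 2.17% (1.05% to 3.96%). In each of these pairs the intervals overlapped. The median absolute difference over the heavy chain genes with an assigned cell was 0.257, 0.383 and 0.299 points in the 3 comparisons. Ighv6-3 had 0 assigned cells among 261 in ConA+TCDD, and 1 UMI in all, where 169, 1570 and 48 UMIs were found in the other libraries, with 1422 of the ConA+Veh UMIs in 1 cell. The whole Ighv6 family also had 0 assigned cells there (upper limit of the exact interval 1.40%), whereas Naïve had 21 (3.90%, 2.43% to 5.89%), ConA+Veh 19 (2.84%, 1.72% to 4.41%) and ConA+FICZ 12 (2.61%, 1.36% to 4.51%). Its interval lay below those of Naïve and ConA+Veh and overlapped that of ConA+FICZ, and this family was singled out after its values were seen.

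**Figure D3:**
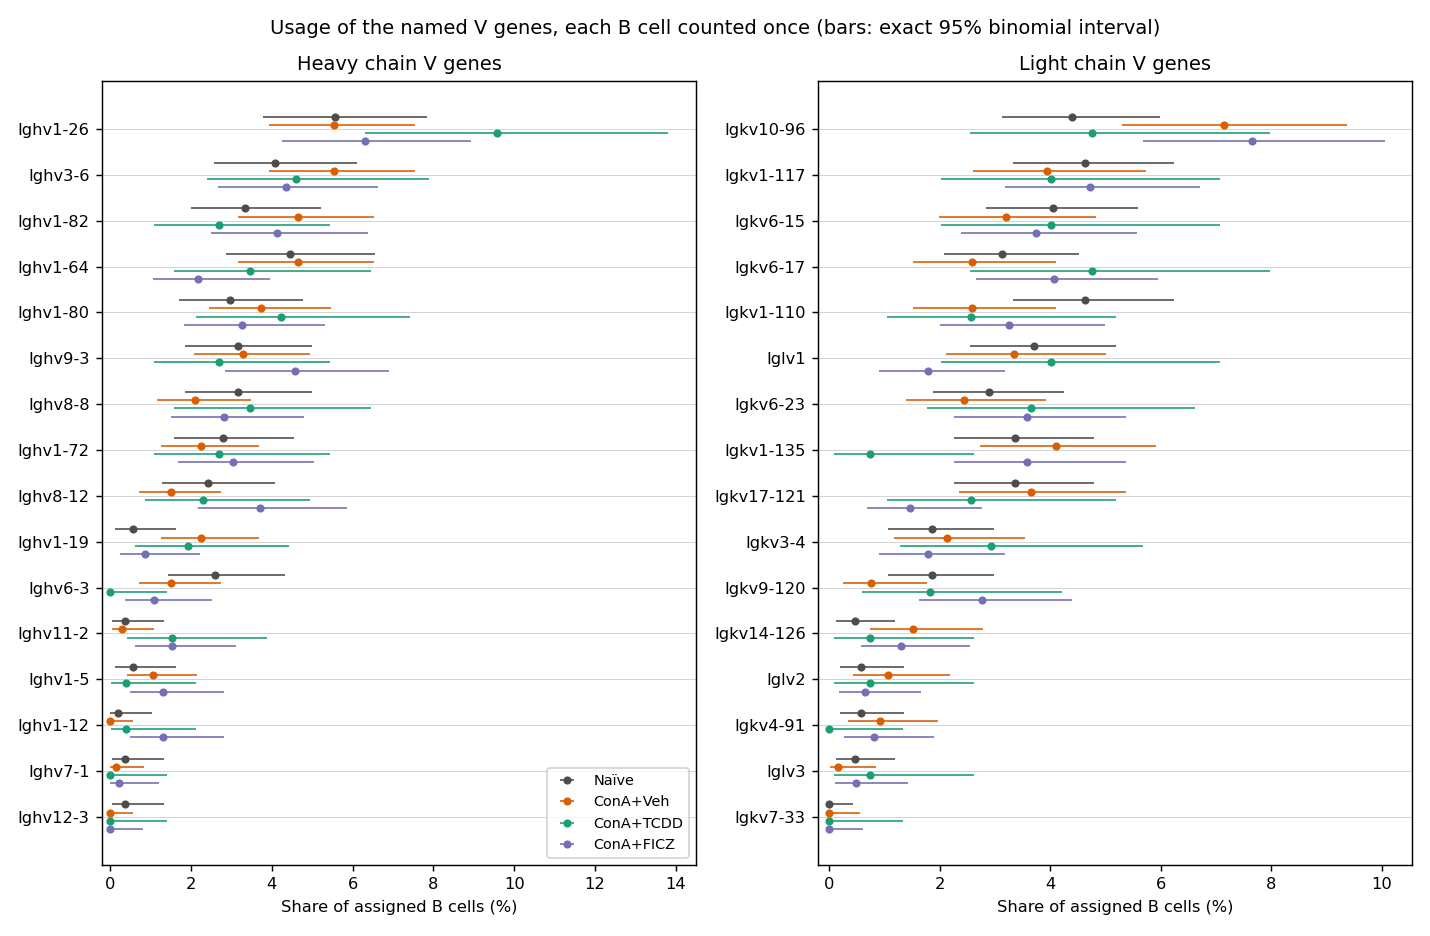
Share of assigned B cells (%) for each named heavy chain (left) and light chain (right) V gene, 1 point per library with its exact 95% binomial interval, genes ordered by their mean share. The Ighv1-26 point of ConA+TCDD at 9.58% is the highest of all, and the Igkv1-135 point of ConA+TCDD at 0.730% lies below the 3 others of its gene.

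The large Ighv1 family (93 genes) took 58.8% (54.5% to 63.0%) of assigned cells in Naïve, 64.1% (60.3% to 67.7%) in ConA+Veh, 65.5% (59.4% to 71.3%) in ConA+TCDD and 60.4% (55.8% to 64.9%) in ConA+FICZ. By UMIs it took 55.6%, 34.9%, 59.6% and 61.0%, and the low ConA+Veh value lay beside the Ighv6-3, Ighv3-6 and Ighv2-2 cells named above. With cells thinned to 1000 UMIs the shares were 53.6%, 55.7%, 67.3% and 57.1%, and with at least 5 UMIs and 90% asked of the leading gene they were 54.1%, 58.3%, 58.6% and 53.9%. ConA+Veh stood above Naïve under both, with overlapping intervals in the counts of cells as assigned, and below it by UMIs. After thinning the gap between ConA+Veh and Naïve was smaller than as assigned, and that of ConA+TCDD over ConA+Veh was larger. The size of these differences therefore depended on the setting. Ighv5, Ighv3, Ighv8, Ighv9 and Ighv2 followed with mean shares of 6.57%, 6.10%, 5.55%, 4.91% and 4.83%.

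Families also differed in how many UMIs of the assigned heavy chain gene a cell held, a measure chosen after the values were seen. In ConA+Veh the median was 6 UMIs for the 428 Ighv1 cells, 12 for the 45 Ighv3 cells, 12 for the 31 Ighv2 cells, 13 for the 19 Ighv6 cells and 5 for the 20 Ighv14 cells. In ConA+FICZ the same families had 5, 11, 16.5, 11.5 and 4. In Naïve, where the cells were shallowest, the medians were 4, 4.5, 4, 7 and 4. The median of Ighv1 cells was thus below that of Ighv3 cells in all 4 libraries, with 6 and 9 in ConA+TCDD. Ighv2 cells had 5 and Ighv14 cells 3 in ConA+TCDD, so Ighv2 did not stand above Ighv1 in every library. Families were not compared at equal depth. The median Ighv1 and Ighv2 cells held 5031 and 4014 UMIs in ConA+Veh, and 6413 and 9288.5 in ConA+FICZ. Assigned cells hold at least 2 UMIs of their gene by definition, so these medians leave out cells with fewer. In Naïve the Ighv1 and Ighv3 medians lay close together and near that limit, with quartiles of 2 to 7 and 3 to 9.

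**Figure D4:**
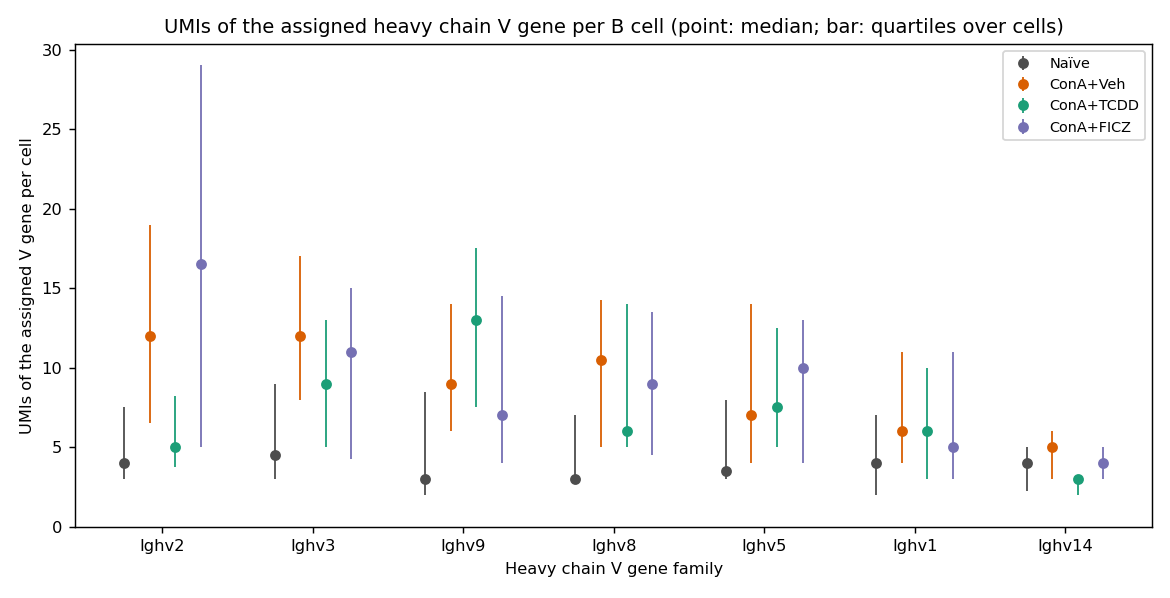
UMIs of the assigned heavy chain V gene per B cell, by family (families with at least 8 assigned cells in each library), 1 point per library at the median over cells with a bar over the quartiles. In ConA+Veh the median is 12 UMIs for Ighv3 and 6 for Ighv1, and the Naïve points lie between 3 and 4.5.

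Igkv10-96 led the light chain by mean share. It was assigned in 38 cells (4.39%, 3.13% to 5.98%) in Naïve and 47 (7.13%, 5.29% to 9.37%) in ConA+Veh. It was assigned in 13 (4.74%, 2.55% to 7.98%) in ConA+TCDD and 47 (7.65%, 5.68% to 10.0%) in ConA+FICZ. Its gain of 2.74 points from Naïve to ConA+Veh was the largest of any light chain gene there, with overlapping intervals. By UMIs the order was turned, with 6.24% of light chain V gene UMIs in Naïve, 809 of 1573 of them in 1 cell, and 3.44% in ConA+Veh. Igkv1-117 (4.62%, 3.95%, 4.01% and 4.72% of cells), Igkv6-15 (4.05%, 3.19%, 4.01% and 3.75%) and Igkv6-17 (3.12%, 2.58%, 4.74% and 4.07%) came next. Igkv1-110 was at 4.62% (3.32% to 6.24%) in Naïve and 2.58% (1.51% to 4.10%) in ConA+Veh, the largest loss in that comparison. Igkv6-23 had 2.89%, 2.43%, 3.65% and 3.58%. For all of these genes the interval of every library overlapped that of every other.

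Igkv1-135 had the largest loss of any light chain gene from ConA+Veh to ConA+TCDD. This gene led 29 cells (3.35%) in Naïve, 27 (4.10%, 2.72% to 5.91%) in ConA+Veh, 2 (0.730%, 0.0885% to 2.61%) in ConA+TCDD and 22 (3.58%) in ConA+FICZ. The ConA+TCDD interval ended just below where the ConA+Veh interval began, and it overlapped those of Naïve and ConA+FICZ. Under the other gates, assignments and sets of cells tried and after thinning, its share stayed at 0.692% to 1.31% in ConA+TCDD and 3.14% to 4.24% in ConA+Veh. The gap narrowed when every cell with at least 2 UMIs of Igkv1-135 was counted, assigned or not. There were then 52, 44, 13 and 42 cells, or 4.81%, 5.32%, 3.71% and 5.30% of B cells. In ConA+TCDD 9 of the 13 also held enough of another light chain gene to stay unassigned, against 14 of 44 in ConA+Veh. Igkv17-121 had the largest loss from ConA+Veh to ConA+FICZ, from 24 cells (3.64%, 2.35% to 5.37%) to 9 (1.47%, 0.672% to 2.76%), while 1 cell gave 896 of its 1557 ConA+FICZ UMIs. This gap also narrowed when every cell with at least 2 UMIs of the gene was counted. There were then 30 such cells in ConA+Veh (3.63% of B cells) and 19 in ConA+FICZ (2.40%). Another light chain gene kept 5 of the 30 and 9 of the 19 unassigned. Igkv9-120 gained most in that comparison, from 0.759% to 2.77%, and Igkv6-17 gained most from ConA+Veh to ConA+TCDD, by 2.16 points. Igkv3-4 led the kappa UMIs of ConA+FICZ with 6285, of which 5893 lay in 1 cell, and was assigned in 16, 14, 8 and 11 cells (1.85%, 2.12%, 2.92% and 1.79%).

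Lambda genes were assigned in 41 of 865 light chain cells (4.74%, 3.42% to 6.38%) in Naïve, 30 of 659 (4.55%, 3.09% to 6.44%) in ConA+Veh, 15 of 274 (5.47%, 3.10% to 8.87%) in ConA+TCDD and 18 of 614 (2.93%, 1.75% to 4.59%) in ConA+FICZ. The intervals overlapped throughout. Iglv1 held most of these cells (32, 22, 11 and 11), followed by Iglv2 (5, 7, 2 and 4) and Iglv3 (4, 1, 2 and 3). By UMIs lambda genes took 7.45%, 7.38%, 5.55% and 6.95%, above their share of cells in every library.

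The constant genes gave a check of the kappa and lambda calls. Igkc, the kappa constant gene, had a UMI in 2236 of 2308 kappa-assigned cells and none in 72 of 104 lambda-assigned cells. Iglc1, a lambda constant gene, had a UMI in 71 of the lambda-assigned cells and 557 of the kappa-assigned cells. Iglc2 and Iglc3 had one in 87 and 60 of the lambda-assigned cells and in 1908 and 1921 of the kappa-assigned cells, so these constant genes did not separate the classes as counted here. Heavy chain constant genes were led by Ighm or Ighd, the IgM and IgD genes of unswitched B cells, in 96.5%, 96.1%, 95% and 97% of heavy-assigned cells, and by a switched gene in 0.

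As counted here, a second light chain gene was more common than a second heavy chain gene. Among cells with at least 2 V gene UMIs of the chain, a second gene with at least 2 UMIs and over 25% of them was found in 3.81%, 2.14%, 2.94% and 2.83% for heavy chains and in 15.1% (13% to 17.5%), 15.6% (13.1% to 18.3%), 13.2% (9.66% to 17.4%) and 14.4% (12% to 17.1%) for light chains. The interval for light chains lay above that for heavy chains in all 4 libraries. Both genes need at least 2 UMIs, so a cell with few UMIs of a chain could not show a second gene. The median B cell held 2, 6, 4 and 3 heavy chain V gene UMIs against 16, 36, 25 and 20 for light chains. The chains were not compared at equal depth. Of the 432 cells with 2 such light chain genes, 333 held a pair of kappa genes, 77 a kappa and a lambda gene and 22 a pair of lambda genes. Of these cells, 3, 15, 2 and 6 had a Cd3 UMI, and their median depth was 2190, 4895, 4107 and 5102 UMIs, against 2177, 4457, 4353 and 4055 in the cells assigned a light chain.

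Iglv1 was the gene most often met in this way, in 80 of the 432 cells, and Iglv1 with Iglv2 was the most frequent combination (13 cells), followed by Iglv1 with Iglv3 (8 cells). The Iglv1 and Iglv2 exons printed above are alike, but Iglv1 and Iglv3 are not. Whether likeness of sequence had a part in these combinations was not tested. Of the 86, 65, 20 and 46 B cells with at least 2 Iglv1 UMIs, 32, 22, 11 and 11 were assigned to it. In 43, 27, 5 and 24 a second gene kept the light chain unassigned, and in 11, 16, 4 and 11 another gene led. The lambda shares above therefore count fewer cells than carry Iglv1 transcripts.

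Single genes were also set beside their closest relative in exon sequence. The closest other gene of the same chain, among those annotated with a coding V exon, shared a median of 94.7% of aligned positions for heavy and 93.1% for kappa genes. For 26 heavy genes it shared at least 97%, and these had a median of 2.5 assigned cells over all libraries, against 9 for the other 87, with 8 of 26 and 13 of 87 leading no cell. For 8 kappa genes it shared at least 97%, with a median of 9 assigned cells against 16 for the other 92. Of these kappa genes 1 of 8 and 15 of 92 led no cell. Whether likeness changed the counts was not tested. Ighv1-62-2 and Ighv1-71 were identical over the exon (17 and 12 UMIs) and cannot be told apart from it. Ighv1-72 shared 99.0% with Ighv1-62-3, and the former had 300 UMIs and the latter 7. Ighv11-2 shared 98.7% with Ighv11-1, and all 287 UMIs were counted for Ighv11-2. Ighv2-2 shared 98% with Ighv2-4, with 1227 and 30 UMIs. For the other genes named here that have an annotated coding exon, the closest gene shared at most 96.8%.

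Along the chromosomes, use was spread over both loci in all libraries. When the functional heavy chain genes were divided by distance from the joining segment Ighj1 into groups of 38, 38 and 37, the nearest group (149 to 833 kb) took 22.6%, 21.2%, 23.0% and 22.8% of assigned cells, the middle group 31.5%, 33.2%, 31.8% and 30.9%, and the farthest group (1625 to 2570 kb) 45.8%, 45.6%, 45.2% and 46.3%. The 4 libraries differed by less than 3 points in each group. For kappa genes, with groups of 34, 33 and 33 measured from Igkj1, the nearest group (18.4 to 822 kb) took 29.9% (26.7% to 33.1%), 31.2% (27.6% to 35.0%), 38.8% (32.8% to 45.0%) and 28.7% (25.1% to 32.5%). ConA+TCDD stood above the other libraries there, and its interval began just above the end of that of ConA+FICZ. Kappa genes on the plus strand, in the opposite orientation to the others, took 46.6%, 44.0%, 47.9% and 43.5% of kappa cells.

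**Figure D5:**
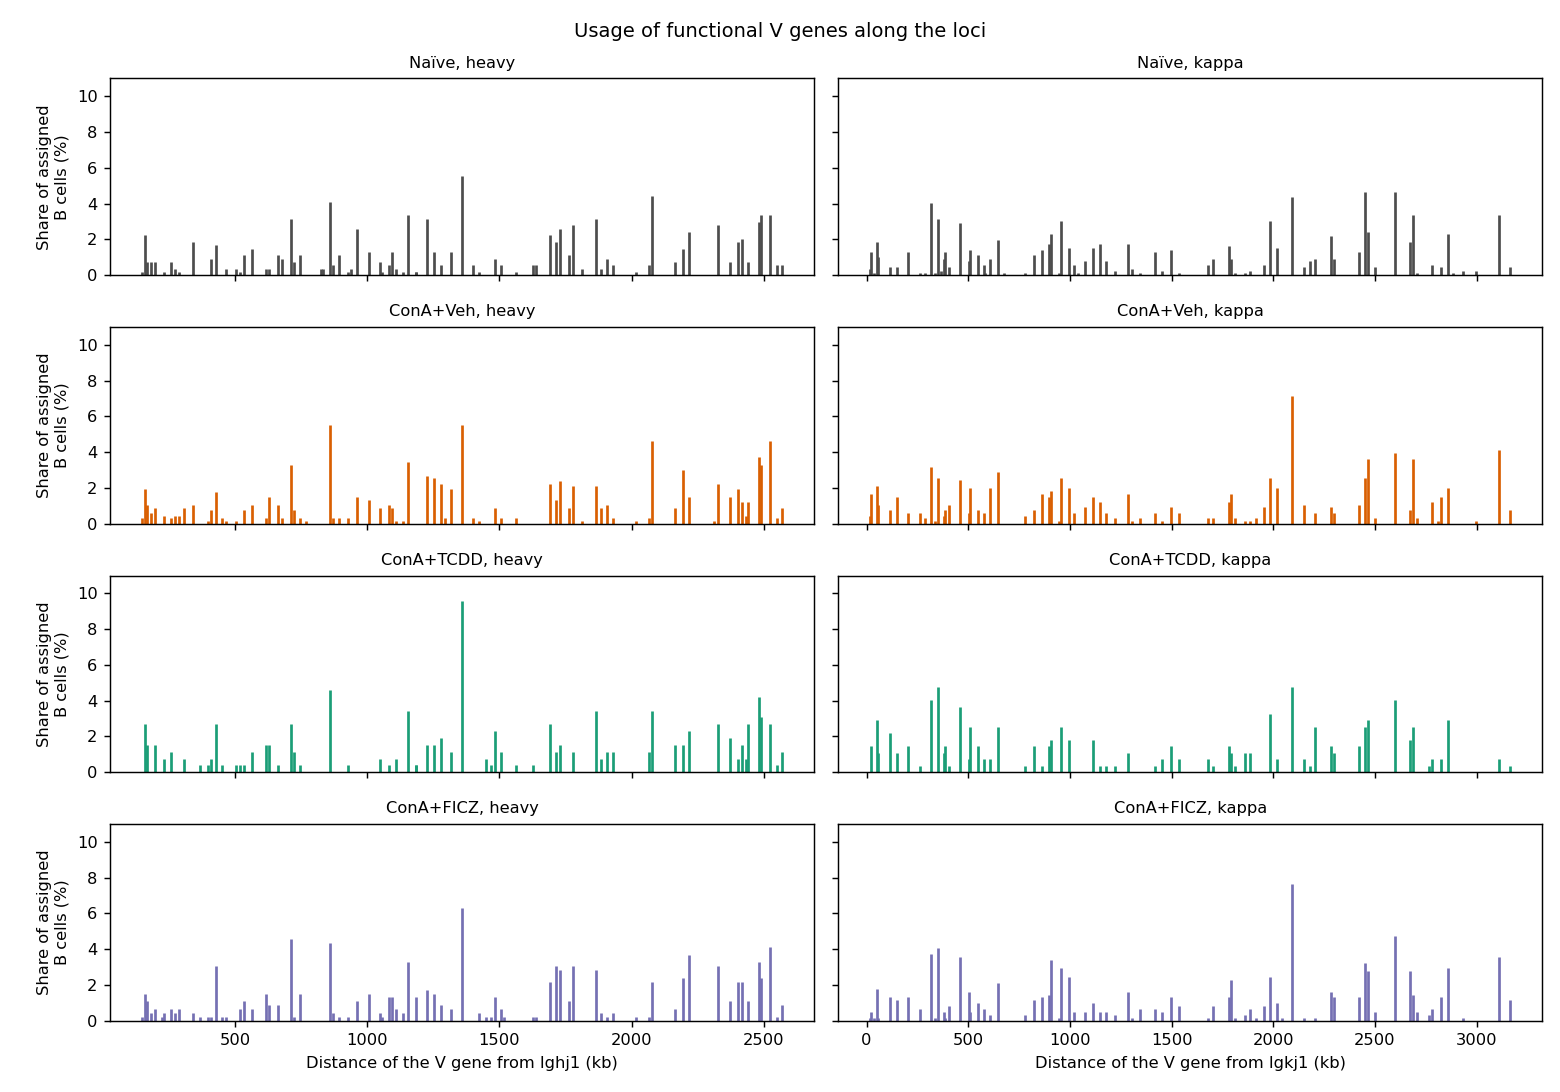
Share of assigned B cells (%, light chain cells for kappa) for each functional V gene, drawn at its distance in kb from Ighj1 (heavy, left) or Igkj1 (kappa, right), 1 row per library. The tall line at 1359 kb in the heavy column is Ighv1-26, which reaches 9.58% in ConA+TCDD, and the one at 2090.1 kb in the kappa column is Igkv10-96, which reaches 7.65% in ConA+FICZ.

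Both chains were assigned in 1577 cells, which held 1147 different pairs of V genes. Of these pairs 865 were met once. The most frequent pair of all was Ighv11-2 with Igkv14-126, a pair known from phosphatidylcholine-binding B-1 cells and printed above, and neither gene was among the most used. It was found in 10 cells. Naïve held 1 among 444 such cells, ConA+Veh 1 among 542, ConA+TCDD 1 among 210 and ConA+FICZ 7 among 381. The ConA+FICZ share was 1.84% (0.742% to 3.75%), beside 0.225% (0.00570% to 1.25%), 0.185% (0.00467% to 1.02%) and 0.476% (0.0121% to 2.62%). All 7 ConA+FICZ cells assigned to Ighv11-2 carried Igkv14-126, whereas in ConA+TCDD the 4 Ighv11-2 cells carried 4 different light chain genes. The next pair, Ighv3-6 with Igkv6-32, was found in 8 cells (3, 4, 1 and 0), where Ighv3-6 led 91 cells over all libraries and Ighv11-2 led 15. Ighv12-3 with Igkv4-91 was found in 2 cells, both in Naïve, which were all the cells assigned to Ighv12-3. Ighv7-1 with Igkv7-33, known from phosphorylcholine-binding antibodies, was found in 0 cells, with upper limits of the exact interval of 0.827%, 0.678%, 1.74% and 0.964%. Igkv7-33 was assigned in 0 cells of any library. Ighv1-72 with Iglv1, known from the response to nitrophenyl, was found in 1 cell, in ConA+FICZ.

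Several other genes were detected unequally in the 12 cells with either phosphatidylcholine pair and in the other 3038 B cells. Ighd, which B-1 cells carry at low levels, had a UMI in 0 of the 12 and in 74.1% of the others. Fcer2a (CD23), of follicular B cells, had one in 0 of the 12, beside 60.5%, 13.6%, 7.74% and 11.8% of the other B cells of the 4 libraries, so its level in the 3 ConA libraries, which held 9 of the 12, was far below that in Naïve. Cr2 (CD21) had one in 0 of the 12, beside 17.9%, 10.5%, 7.74% and 8.54%. Bhlhe41, a transcription factor of B-1a cells, had a UMI in 7 of the 12 and in 1.22% of the others. Within ConA+FICZ alone it had one in 4 of the 7 pair cells against 0.892%. Zbtb32 had one in 6 of the 12 against 5.40%, and in ConA+FICZ in 3 of 7 against 8.15%. Plscr1 had one in 6 of the 12 against 11.4%, and in ConA+FICZ in 2 of 7 against 13.9%. Cd5, the surface marker of B-1a cells, had one in 1 of the 12 against 1.68%. These 12 cells held 3007 to 30541 UMIs, beside medians of 2142 to 4398 over all B cells of a library. The 7 ConA+FICZ cells held 27, 2, 2, 50, 10, 29 and 6 UMIs of Ighv11-2 and 141, 5, 14, 440, 72, 64 and 65 of Igkv14-126, so both weak and strong chains were among them. The 5 Ighv11-2 cells with another light chain gene, or with no light chain gene assigned, all held Ighd, with 1 to 6 UMIs. Jchain had 0 UMIs in all 12.

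Summed over cells, many V genes passed a 2-fold difference in CPM between libraries. A gene was compared where it had at least 30 UMIs in both libraries together, and a count of 0 was set to 3. For ConA+Veh over Naïve 152 V genes met this, and 30 were higher and 34 lower (42.1% in all), beside 25.8% of the 9038 genes compared over the whole table, where 7.81% were higher and 18% lower. For ConA+TCDD over ConA+Veh it was 11 higher and 60 lower of 144 (49.3%), beside 3.48% of 8610 genes, with 0.836% higher and 2.65% lower. For ConA+FICZ over ConA+Veh it was 18 higher and 54 lower of 150 (48.0%), beside 3.31% of 9261 genes, with 2.04% higher and 1.27% lower. ConA+FICZ over ConA+TCDD gave 37 higher and 30 lower of 135 (49.6%), beside 5.25% of 8659 genes, with 4.02% higher and 1.24% lower. These comparisons share libraries, and no fold was tested.

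The share of V genes past 2-fold stood above that of all genes in each comparison. Each V gene is read from the few cells that use it, and whether this set the difference was not tested. For 25 of 64, 25 of 71, 31 of 72 and 28 of 67 V genes past 2-fold, a single cell gave more than 50% of the UMIs of the higher library. Igkv1-117 was an example, at 547 UMIs in ConA+TCDD against 8357 in ConA+Veh, a log2 ratio of -2.66 (-2.79 to -2.53), while its share of assigned cells was 4.01% and 3.95%. Ighv3-6 had a log2 ratio of -3.23 (-3.51 to -2.97) in the same comparison, at 4.6% and 5.54% of cells. The median log2 ratio over the compared V genes was -0.16, -0.60, -0.48 and 0.05 in the 4 comparisons, beside -0.27, 0.02, 0.06 and 0.04 over all genes compared.

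Other genes of the receptor were described beside the V genes. Of 32 genes of constant regions, receptor assembly and signalling, 22 were compared for ConA+Veh over Naïve. Past 2-fold, Jchain was higher and 9 were lower (45.5% of the 22, beside 25.8% of all genes), among them Igkc (9829 UMIs in Naïve and 7420 in ConA+Veh, log2 ratio of CPM -1.30), Ighd (-1.34), the signalling kinases Blk (-1.90) and Syk (-1.02), and Cr2 (-1.96). Iglc1, Ighg3 and Igha were also among the 9. Ighm was not among them (-0.40). For ConA+TCDD over ConA+Veh 1 of 21 passed (4.76%, beside 3.48% of all genes), Jchain, with 0 against 1121 UMIs. For ConA+FICZ over ConA+Veh 2 of 22 did (9.09%, beside 3.31%), Jchain lower (374 against 1121 UMIs) and Ighg3 higher (24 against 9 UMIs). For ConA+FICZ over ConA+TCDD 3 of 21 were higher (14.3%, beside 4.02% of all genes higher), Jchain, Iglc1 and Vpreb1. In ConA+Veh and ConA+FICZ the Jchain sums rested on the cells with at least 1000 V gene UMIs. The 4 such cells of ConA+Veh held 1119 of the 1121 Jchain UMIs, and the 3 of ConA+FICZ held 371 of the 374. In Naïve the 1 such cell held 0, and 25 of the 32 Jchain UMIs lay in a cell with 396 V gene UMIs. The 3 ConA+FICZ cells also held 72, 31 and 10 of that library's 644 Iglc1 UMIs, and 2, 0 and 10 of its 24 Ighg3 UMIs. Without the cells with at least 1000 V gene UMIs, Jchain stood at 11.7, 0.394, 0 and 0.625 CPM in the 4 libraries. The ratios of Iglc1 and Ighg3 were not recomputed without those cells. The shares of this list past 2-fold given above include those cells. The recombination gene Rag1 had 1 to 10 UMIs and Rag2 0 or 1 in the B cells of each library.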

How the data were processed

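Liver mononuclear cells of 4 groups were measured, with 1 library each. The authors used a droplet 5′ assay (10x Genomics). The deposited values are raw UMI counts per gene and cell, made with Cell Ranger 3.0.2 and not normalized. The genome build named in the submitters' processing notes is mm10. The deposited counts were used as they are.

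V genes were taken by symbol. Gene IDs were matched to GENCODE M21 (GRCm38), where all 348 were found, and V exons were cut from its transcripts by the annotated coding coordinates. Groups came from the sample titles. B cells, T cells, thinning and assignment are defined in the results. Shares carry exact Clopper-Pearson intervals, sums exact Poisson intervals, and log2 ratios exact conditional binomial intervals. PCR copies are collapsed by UMI, and intervals cover counting error only. Exons were aligned globally with Biopython. The named genes were, for heavy and kappa chains, the 6 with the highest mean share of assigned cells over the libraries, the 3 lambda genes, the genes that led the UMIs of a chain or of the cell with the most V gene UMIs, those with the largest gain and loss in share in each comparison with ConA+Veh, and the genes of 4 known pairs. Members and lists were chosen with earlier results of these data known. Tools were Biopython 1.88, matplotlib 3.10.9, pandas 2.3.3, scipy 1.17.1 and numpy 2.4.6 under Python 3.11.15, and the steps were tested on simulated data. Alternatives were other gates, assignments, depths and totals. No promoter, recombination signal or protein sequence of these genes was used here. The values of 1 gene of the receptor list are not reported here.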

Additional observations from a re-analysis of the deposited data

Results flagged for a closer look

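V gene UMIs in cells outside the B cell gate, which the comparisons do not use, made up 5.56% of all V gene UMIs in ConA+TCDD, above the 0.554% of the Naïve library. ConA+Veh and ConA+FICZ had 0.876% and 0.852%. In ConA+TCDD 815 UMIs lay in such cells, 405 of them in cells with no UMI of Cd79a, Cd79b or Ms4a1. There were 20 such cells with at least 10 V gene UMIs, against 5, 7 and 10 in Naïve, ConA+Veh and ConA+FICZ. All 20 had a UMI of Cd74, the invariant chain of antigen-presenting cells, 17 had one of the B cell factor Ebf1, 17 one of Ighm, 2 one of a Cd3 gene and 0 one of the phagocyte gene Lyz2. The light chain could be assigned to 1 V gene in 14 of the 20. The B cell counts of ConA+TCDD are therefore those of a gate that these cells missed.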

How the results depend on the processing

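The summed CPM of V genes, the shares of Ighv1, of lambda and of the named genes, the share of the 10 leading cells and the counts past 2-fold in the comparisons of ConA+Veh with Naïve and of each ligand with vehicle were recomputed, each under those other gates, assignments, depths, totals and sets of cells that bear on it, 1 change at a time. The pairs, second genes, other families, UMIs per cell, positions, diversity and the counts for ConA+FICZ over ConA+TCDD were not recomputed. Leaving out the cells with at least 1000 V gene UMIs was chosen after seeing the data. The CPM of all V genes left its counting interval in 23 of 32 values. Within their intervals stayed 33 of 40 values of the Ighv1 share, 37 of 40 of the lambda share and 1135 of 1152 shares of named genes. Of 90 counts in the 2-fold comparisons (genes compared, higher and lower), 83 moved by at most 1.5 times. The 7 that moved further were counts past 2-fold. The interval was narrow for CPM (10823 to 11070 for Naïve) and wide for shares (54.5% to 63.0% for Ighv1 in Naïve). These counts therefore do not rank the results by stability. Leaving out cells rich in immunoglobulin or with at least 1000 V gene UMIs removed few cells, so shares over cells could hardly move.

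With the gate at 2 UMIs all V genes stood at 10779, 10866, 5984 and 7875 CPM, and with the gate at 5 at 12160 in ConA+Veh, 7096 in ConA+TCDD and 8788 in ConA+FICZ. Without B cells that held UMIs of T, myeloid or NK cell genes they stood at 11297, 11485, 6931 and 9172 CPM, without immunoglobulin in the total at 11174 (Naïve), 12112 (ConA+Veh) and 8356 (ConA+FICZ), and as a mean over cells at 10365, 12143, 8462 and 7781. Without the cells with at least 1000 V gene UMIs they stood at 10439 (Naïve), 8162 (vehicle) and 6065 (FICZ), and without cells with at least 20% immunoglobulin at 8452 in ConA+Veh and 6327 in ConA+FICZ.

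The Ighv1 share was 54.1%, 58.3%, 58.6% and 53.9% with at least 5 UMIs and 90% asked, 53.6% in Naïve and 55.7% in ConA+Veh after thinning, and 34.9% in ConA+Veh by UMIs. The lambda share by UMIs was 7.45% (Naïve), 7.38% (vehicle) and 6.95% (FICZ). With at least 100 UMIs asked, 8 V genes were higher in ConA+FICZ over ConA+Veh, 3 higher and 38 lower in ConA+TCDD over ConA+Veh, and 19 lower in ConA+Veh over Naïve. With at least 10 UMIs, 20 were higher in ConA+TCDD over ConA+Veh. Without the cells with at least 1000, 11 were higher in ConA+FICZ over ConA+Veh, and by the mean over cells 21 were lower in ConA+Veh over Naïve.

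The share of the 10 cells with the most V gene UMIs was 7.11% (Naïve), 5.49% (vehicle) and 8.43% (FICZ) without the cells with at least 1000, 8.52% in ConA+Veh and 12.1% in ConA+FICZ without the cells rich in immunoglobulin, 28.8%, 12.6% and 34.3% in ConA+Veh, ConA+TCDD and ConA+FICZ without cells holding UMIs of other types, and 35.2% in ConA+Veh without cells over 10% mitochondrial. The alternatives that leave out cells change these values by their construction, and otherwise the cause was not tested.

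No paired analysis was possible because each group has 1 library and the labels carry no replicate numbers. The number of B cells limits single genes: at 261 heavy-assigned cells 0 cells of a gene allow a share of up to 1.40% by the exact interval.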
